A study of Mus musculus with 51 samples.

Results

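Cry1 and Cry2, the cryptochrome genes of the mouse, were followed in fetal kidney through 2 series of libraries. They were chosen by symbol, without reference to their values, and are 2 of the 16099 genes in the deposited expression table. The samples were kidneys of wild-type C57BL/6 mouse fetuses, with no treatment or further allele named in the labels, taken every 4 h from CT0 to CT48 (hours of the series). By the labels CT0 falls on embryonic day 18, CT24 on day 19 and CT48 on day 20, while the design text of the study names a later end. There were 13 time points with 4 libraries each, apart from CT20 with 3, which makes 51 libraries. Apart from 2 libraries that carry another ID prefix (CT12 replicate 4 and CT36 replicate 3), the library numbering runs in a first series, CT0 to CT24 (27 libraries), and a second, CT28 to CT48 (24 libraries), and those 2 were placed by their time point. Leaving them out changed no call on the cryptochromes. The labels call the libraries of a time point biological replicates but name neither dams nor litters, nor how many kidneys went into a library, so p-values measure only the spread between these samples.

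CRY1 and CRY2 are the strongest repressors of the mammalian circadian clock: together with PER proteins they bind the CLOCK and BMAL1 activators and shut down transcription from E-boxes, those in their own promoters and in the Per genes included. Their degradation after ubiquitination lets a new cycle begin, and the delay between making and removing them sets the pace of the clock. In adult organs Cry1 mRNA peaks later than the Per and Nr1d1 mRNAs, and mice that lack both cryptochromes have no behavioural rhythm in constant darkness. The kidney has such a clock in the adult, and the study asked about clock control of developmental time in the fetal organ.

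Both genes lie on the reverse strand. By GENCODE M21, on GRCm38 (mm10), Cry1 (ENSMUSG00000020038.10) is a protein-coding gene at chr10:85131700-85185064 and Cry2 (ENSMUSG00000068742.11) a protein-coding gene at chr2:92403646-92434043. An antisense gene, D930015M05Rik, at chr2:92408892-92432308 on the forward strand, overlaps exons of Cry2 and has no row in the table. The sources used here do not say if counting used strand, so reads from Cry2 and from this gene cannot be told apart. The promoters are shown because the E-box is an element through which CLOCK and BMAL1 act. Bases before each transcription start (RefSeq, GRCm38.p6) are written 5′ to 3′ along the gene's strand. For Cry1 they are chr10:85185065-85185304 (240 bases, -250 to -11) and for Cry2 chr2:92434070-92434319 (250 bases, -250 to -1). The Cry1 stretch stops at -11 because the bases from there to the start lie in a GENCODE exon of the gene. Capitals mark the E-box CACGTG and the related E′-box CACGTT, which reads AACGTG where it lies on the other strand.
Cry1 promoter: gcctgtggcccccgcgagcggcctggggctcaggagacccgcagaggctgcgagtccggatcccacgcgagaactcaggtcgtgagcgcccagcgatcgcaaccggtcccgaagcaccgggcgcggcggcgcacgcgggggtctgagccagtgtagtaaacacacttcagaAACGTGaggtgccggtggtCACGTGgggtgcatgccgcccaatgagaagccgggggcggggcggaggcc
Cry2 promoter: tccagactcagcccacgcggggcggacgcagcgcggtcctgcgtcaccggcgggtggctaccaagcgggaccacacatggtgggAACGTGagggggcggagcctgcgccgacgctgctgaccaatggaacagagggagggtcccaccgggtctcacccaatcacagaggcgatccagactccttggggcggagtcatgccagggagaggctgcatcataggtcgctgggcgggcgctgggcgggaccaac
Cry1 carried 1 E-box, at positions -60 to -55 from the start, and 1 E′-box at -79 to -74. Cry2 carried 1 E′-box at -166 to -161 and no CACGTG. Both strands were searched from 250 bases before to 50 bases after the start, and the same search over 32851 mouse promoters found the E-box in 7.15% and the E′-box in 4.68%. The D-box (TTATGTAA or TTATGCAA), the RRE half-site AGGTCA and the CRE TGACGTCA were found in 1.66%, 16.3% and 1.79% of all promoters and had no match in either cryptochrome window. Among the other clock genes of the lists used below that have a window in that table, the E-box was present in Bhlhe41, Ciart, Per1, Tef and Cul1, and the E′-box in Nr1d1, Rorb and Ddb1. These matches describe the letters in a window and are not evidence of binding. Sequence outside the windows was not searched, so a missing match says nothing about the rest of the gene.

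The deposited values are normalised and rounded, with library totals of 34226024 to 35711911, so depth is unknown. Gene means of the series had been made nearly equal: over 12274 genes with a mean of at least 100, the log2 difference between series had a standard deviation of 0.0326, against 0.01 for Cry1 and 0.06 for Cry2. Levels were therefore compared within a series only. The median standard deviation between replicates was 0.0745 on the log2 scale in the first series and 0.136 in the second. The 8 libraries of CT28 and CT32 stood apart on the first principal component (25.8% of the variance), at -43.2 to -23.0, against -1.27 to 32.3 for CT36 to CT48 and -8.44 to 7.9 for the first series. The kidney markers (Pax8, Six2, Nphs1, Slc34a1, Umod and Aqp2) were present in every library, with summed values of 44937 to 67721 in the first series and 46573 to 70589 in the second. In whole kidneys, fewer cells of a type and less RNA per cell cannot be told apart.

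Cry1 formed a single broad hump in the first series. At CT0 its values were 1064, 1208, 1239 and 1099 (1152.5 ± 84.2, SD, n = 4). At CT12 they were 1452, 1350, 1420 and 1412 (1408.5 ± 42.7). At CT20 they were 1177, 1049 and 1086 (1104 ± 65.9, n = 3). Every CT12 library lay above every library of CT0 and CT20. In between, Cry1 read 1209, 1108, 1225 and 1266 at CT4, and 1308, 1271, 1347 and 1463 at CT8. After the top it read 1305, 1271, 1366 and 1383 at CT16. At CT24 it was back at 1147, 1188, 1269 and 1135, a range that overlaps CT0. The mean at CT12 was 1.28 times the mean at CT20. In the order of levels, CT20, CT0, CT24, CT4, CT16, CT8 and CT12, the only neighbours whose ranges did not overlap were CT4 and CT16. The libraries of CT20, CT0, CT24 and CT4 reached at most 1269, and those of CT16, CT8 and CT12 began at 1271.

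Cry2 ran the other way with a smaller swing. At CT0 its values were 970, 968, 1002 and 1009 (987 ± 21.3, n = 4). At CT12 they were 852, 825, 865 and 913 (864 ± 36.8). At CT20 they were 1022, 1017 and 981 (1007 ± 22.4, n = 3). All CT12 libraries thus lay below all libraries of CT0 and CT20. Cry2 read 917, 931, 988 and 956 at CT4 and 869, 990, 984 and 983 at CT8. It read 841, 828, 931 and 933 at CT16, the time point next to CT12 in order of level. At CT24 the values were 908, 884, 984 and 1043, which span most of the range of the series. The mean at CT20 was 1.17 times that at CT12, and no neighbouring time points in the order CT12, CT16, CT4, CT24, CT8, CT0 and CT20 were free of overlap.

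**Figure D1:**
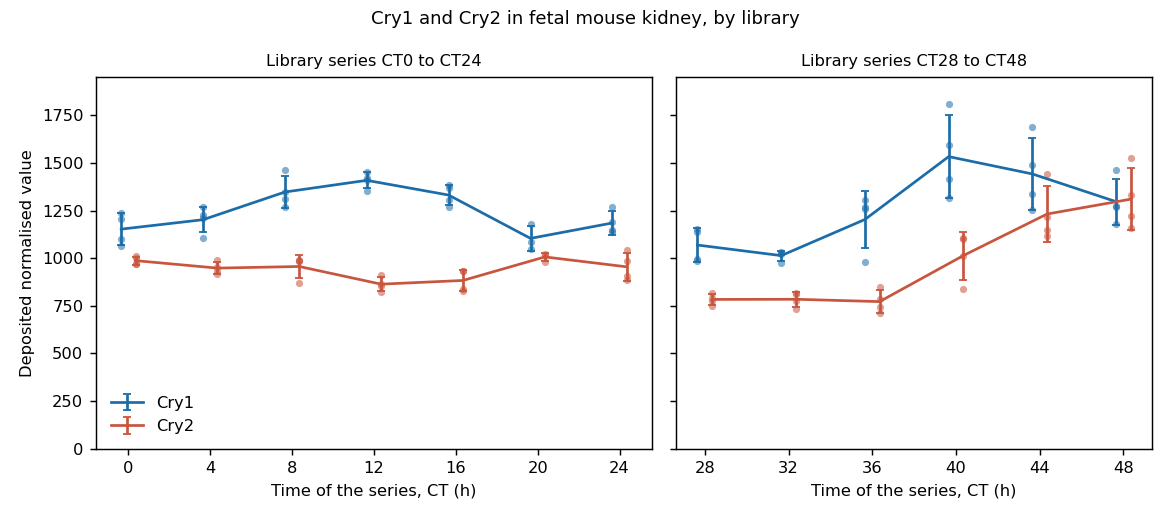
Deposited normalised values (vertical axis, from 0) of Cry1 (blue) and Cry2 (red) in each library against the time of the series in hours, with the first and second library series in separate panels; points are libraries, lines join means, and bars are 1 SD (n = 4, at CT20 n = 3). Cry1 is highest at CT12 (mean 1408.5) where Cry2 is lowest (864), and in the second series both are higher at CT44 than at CT32. The distance between the curves is not a difference in abundance, as values were not divided by gene length.

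Differences between the 7 time points of the first series passed the test for both genes, with an adjusted p of 3.12e-05 for Cry1 and 0.008 for Cry2 (limma F test on log2(value + 1), Benjamini-Hochberg over 14426 genes). Such differences were common, since 43.5% of tested genes passed. The Cry2 call was lost with all 51 libraries in 1 fit (adjusted p = 0.271), without replicate 2 of every time point (0.109) and without replicate 3 (0.0808). From CT0 to CT12, when 18.6% of genes changed, Cry1 rose by 0.29 ± 0.05 on the log2 scale (SE, adjusted p = 0.000349), as did 8.6% of genes. Over the same interval Cry2 fell by 0.19 ± 0.05 (adjusted p = 0.00913), as did 9.96% of genes. From CT12 to CT24, with 25.6% of genes changed, Cry1 fell by 0.25 ± 0.05 (adjusted p = 0.00103), as did 10.9% of genes. Cry2 rose by 0.14 ± 0.05 over that interval (adjusted p = 0.0405), as did 14.7%. This comparison shares its CT12 libraries with the one before, so the opposite signs are not independent. The Cry2 rise lost its call when any 1 of 5 libraries was left out, to an adjusted p of 0.0727, 0.128 and 0.0691 without CT12 replicates 1, 2 and 3 and of 0.114 and 0.184 without CT24 replicates 3 and 4.

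At the other clock times of the first series Cry1 fell by 0.29 ± 0.06 from CT8 to CT20 (adjusted p = 0.00144, with 13.6% of all genes called and 5.13% lower). Cry2 differed by 0.08 over that interval (95% interval -0.04 to 0.19, adjusted p = 0.394). For CT16 against CT4, where 4.51% of genes were called, Cry1 was 0.15 higher (0.04 to 0.25, adjusted p = 0.106) and did not pass. Cry2 was lower by 0.10 there (-0.21 to 0.0013, adjusted p = 0.282). At the same clock time a day apart, CT24 against CT0, 26.6% of genes were called and neither cryptochrome was. Cry1 differed by 0.04 (-0.07 to 0.15, adjusted p = 0.601) and Cry2 by -0.05 (-0.16 to 0.05, adjusted p = 0.496). With all 51 libraries in 1 fit, which then share the wider spread of the second series, Cry2 was no longer called from CT0 to CT12 (adjusted p = 0.169), nor Cry1 from CT8 to CT20 (0.109) or from CT12 to CT24 (0.0544).

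A 24 h cosine and sine fitted to the first series gave Cry1 an amplitude of 0.15 ± 0.02 (log2, mean to peak) with its peak at 11.2 ± 0.607 h (adjusted p = 0.000124). In this test 13.3% of genes were called, and Cry1 had the 26th smallest p of 14426. Cry2 was fitted with an amplitude of 0.08 ± 0.02 that peaked at 0.709 ± 1.21 h (adjusted p = 0.0332), near the end and start of the day where Cry1 is low. The median amplitude over all genes was 0.0495. The first series spans a single turn of 24 h, so a rhythm and a rise and fall with age cannot be told apart. Libraries of 1 time point share whatever set that time apart, and over the 7 means alone neither fit passed (adjusted p = 0.692 for Cry1 and 0.698 for Cry2). By that measure limma called 0 of 14426 genes, and 1023 had an unadjusted p under 0.05. Leaving out single time points kept the Cry1 call, with adjusted p from 8.45e-05 to 0.0114. The Cry2 call was lost without CT0 (adjusted p = 0.0716), CT4 (0.0569), CT12 (0.324) or CT16 (0.0875). It was also lost without any 1 of 7 libraries, namely CT0 replicate 4, CT12 replicates 1 to 3, CT16 replicates 1 and 2 and CT24 replicate 4, with adjusted p up to 0.0887.

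In the second series both genes started low and were higher from CT40 on. Cry1 read 1154, 1140, 995 and 987 at CT28 (1069 ± 90.3, n = 4) and 974, 1021, 1026 and 1033 at CT32 (1013.5 ± 26.8). At CT36 it read 982, 1259, 1268 and 1304 (1203 ± 149). At CT40 the values were 1413, 1807, 1316 and 1596 (1533 ± 216), all above every library of CT28, CT32 and CT36. At CT44 they were 1253, 1490, 1337 and 1688 (1442 ± 191), and at CT48 1271, 1179, 1464 and 1272 (1296.5 ± 120). The mean at CT40 was 1.51 times that at CT32, but spreads were wide after CT32, and all neighbours in the order CT32, CT28, CT36, CT48, CT44 and CT40 overlapped.

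Cry2 stayed flat for 3 time points. Its values were 748, 820, 777 and 790 at CT28 (784 ± 29.9, n = 4), and 812, 818, 777 and 731 at CT32 (784.5 ± 39.99). At CT36 they were 712, 785, 742 and 850 (772 ± 59.9). Then they stepped up to 1103, 1106, 837 and 1009 at CT40 (1014 ± 126.1), with 1 library still within the range of CT36. At CT44 they were 1119, 1444, 1148 and 1216 (1232 ± 147), and at CT48 1527, 1157, 1221 and 1334 (1310 ± 162). Every library of CT44 and CT48 exceeded every library of CT28 to CT40. The mean at CT48 was 1.70 times that at CT36, and in the order CT36, CT28, CT32, CT40, CT44 and CT48 the ranges of CT32 and CT40, and of CT40 and CT44, did not overlap.

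Differences among the 6 time points of the second series passed for Cry1 (limma, adjusted p = 3.21e-05) and Cry2 (adjusted p = 1.37e-08), in a series where 64.7% of genes passed. Without CT28 and CT32, the time points that stood apart on the first principal component, Cry1 no longer passed (adjusted p = 0.0793) and Cry2 did (adjusted p = 0.000284). From CT28 to CT40, with 40.7% of genes called and 18.7% higher, Cry1 rose by 0.51 ± 0.10 (adjusted p = 0.000188) and Cry2 by 0.36 ± 0.10 (adjusted p = 0.0033). From CT32 to CT44, with 48.8% called and 22.8% higher, Cry1 rose by 0.50 ± 0.10 (adjusted p = 0.000174) and Cry2 by 0.64 ± 0.10 (adjusted p = 3.42e-06). From CT36 to CT48 only 13.9% of genes were called, and 6.74% were higher. Cry2 rose by 0.76 ± 0.10 (adjusted p = 8.49e-06), the 17th smallest p of 14426. Cry1 differed by 0.11 (95% interval -0.09 to 0.32, adjusted p = 0.489). Over the step from CT32 to CT36, when 34.8% of genes were called, Cry1 was 0.24 ± 0.10 higher without passing (adjusted p = 0.0668), and it passed when CT36 replicate 1, its lowest library, was left out (0.33, adjusted p = 0.0109). Cry2 differed by -0.02 over that step (-0.22 to 0.17, adjusted p = 0.87).

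**Figure D2:**
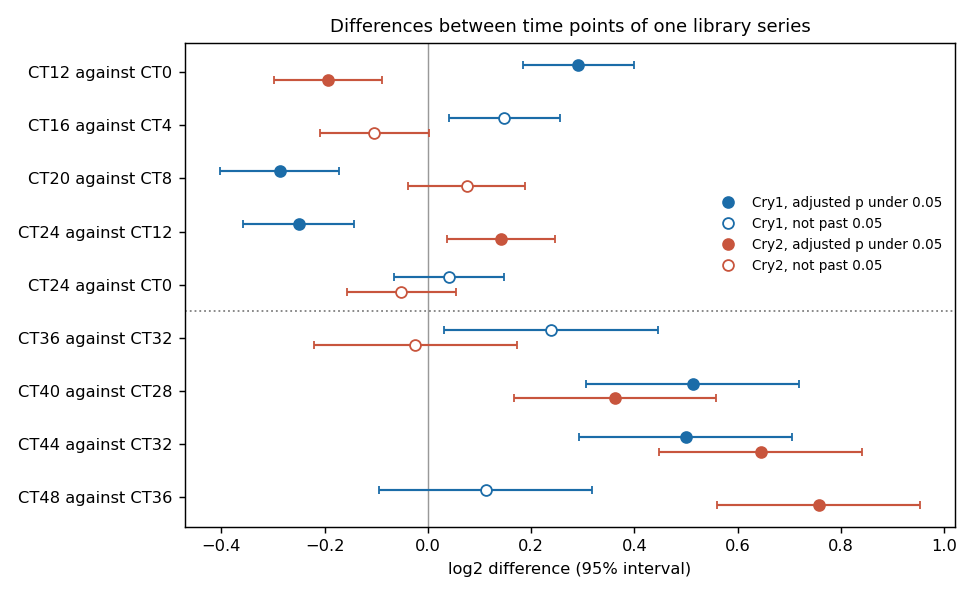
Differences in log2(value + 1) between time points of 1 library series (horizontal axis) for Cry1 (blue) and Cry2 (red), with 95% intervals from limma; filled points have an adjusted p under 0.05, and a dotted line parts the first series (above) from the second (below). In the first series the genes lie on opposite sides of 0 in each of the 5 comparisons, and in the second both lie above 0 for CT40 against CT28 and CT44 against CT32. Several comparisons share a time point and are not independent.

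Some genes listed as markers of tissue outside the kidney were called within these intervals. Their part in the cryptochrome values was not tested, nor whether kidney cells expressed them. Of all genes, 40.7% were called for CT40 against CT28, 48.8% for CT44 against CT32 and 13.9% for CT48 against CT36. In the first series the shares were 18.6% for CT12 against CT0, 25.6% for CT24 against CT12 and 13.6% for CT20 against CT8. For CT40 against CT28, of 5 skeletal muscle markers 1 rose (Acta1) and 1 fell (Actn3), and their summed values ran from 290 to 502 at CT28 and from 234 to 2282 at CT40. The highest muscle sum was that of CT40 replicate 3, which also had the lowest Cry1 (1316) and Cry2 (837) of that time point. Other time points went the other way. The highest muscle sum of CT36 (940) was in replicate 4, with the highest Cry1 (1304) and Cry2 (850) of CT36. That of CT0 (690) was in replicate 3, with the highest Cry1 of CT0 (1239). Without CT40 replicate 3 the rises from CT28 were 0.58 for Cry1 and 0.45 for Cry2. The highest liver sum of CT40 (14687) was in replicate 1, which had the lowest log2 ratio of Cry1 to Cry2 there (0.357). Its highest erythroid sum (1800) was in replicate 2, which had the highest Cry1 there (1807). Of 5 liver markers 1 was higher at CT40 than at CT28 (Ttr), and of 3 adrenal markers tested 1 was higher (Star). None of 3 erythroid markers was called there, nor was Fabp4, the 1 adipose marker tested. The adipocyte marker Adipoq had a median of 0 over all libraries, against 8606 for Fabp4. Of the 6 kidney markers Aqp2, Umod and Pax8 rose from CT28 to CT40 and Six2 fell. For CT44 against CT32 Pax8 rose and Slc34a1 and Six2 fell. In that comparison the liver markers Ttr and Serpina1a rose, and Actn3 and Fabp4 fell. For CT48 against CT36 no liver, adrenal, muscle, adipose or erythroid marker was called, and 2 of 6 kidney markers were, Six2 lower and Pax8 higher. For CT12 against CT0, 4 of 6 kidney markers were called: Aqp2, Umod and Nphs1 rose and Pax8 fell. In that comparison Ttr and Slc4a1 also rose, and Actn3 and Alas2 fell. Slc4a1 and Alas2, both from the erythroid list, thus moved in opposite directions. From CT12 to CT24 Umod, Slc34a1 and the liver marker Apoa2 rose and Six2 fell, and from CT8 to CT20 Umod, Aqp2 and the adrenal marker Nr5a1 rose. Between CT32 and CT36, when 34.8% of all genes were called, Umod rose and Slc34a1 and Six2 fell. The liver markers Ttr and Serpina1a rose over that step, and Alb and Fabp4 fell. No adrenal, muscle or erythroid marker was called there.

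With the 24 h terms fitted to the second series, where 50% of genes were called, the Cry1 amplitude was 0.29 ± 0.04 with its top at 18.5 ± 0.553 h (adjusted p = 1.47e-05). The Cry2 amplitude was 0.42 ± 0.05 with its top at 21.1 ± 0.445 h (adjusted p = 7.8e-07). Peak hours count from CT0 in turns of 24 h. The median amplitude of all genes was 0.158. This series spans less than a full cycle, so a 24 h rhythm and a change with age cannot be told apart. With a line added for age, the Cry1 amplitude was 0.30 (adjusted p = 0.0156) and that of Cry2 was 0.22 (adjusted p = 0.0387), a reduction by more than 1.5 times. Over the 6 means alone neither passed (adjusted p = 0.12 for Cry1 and 0.122 for Cry2).

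The fitted terms differed between the series for both genes, with an adjusted p of 1.73e-07 for Cry1 and 9.7e-07 for Cry2 in a limma test of the difference itself, which called 43.3% of genes. Cry1 moved from a fitted peak at 11.2 h to one at 18.5 h, and Cry2 from one at 0.709 h to one at 21.1 h. With a line in each series the Cry2 difference was not called (adjusted p = 0.137). Fitted to time-point means, the adjusted p was 0.0388 for Cry1 and 0.0782 for Cry2. Library series and age are the same split here, so their effects cannot be told apart.

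The ratio of Cry1 to Cry2 within a library is not changed by a single scaling factor per library. As log2(Cry1 + 1) minus log2(Cry2 + 1), not corrected for length, its mean was 0.22 at CT0, 0.34 at CT4, 0.49 at CT8 and 0.71 at CT12. It then dropped through 0.59 at CT16 to 0.13 at CT20 and stood at 0.31 at CT24. The range of 0.57 between time points exceeded the spread between libraries (permutation test of the F statistic, two-sided, p = 1e-05, the smallest that 100000 resamples can give, and 2e-05 adjusted over the 2 series). In the second series the means were 0.44 at CT28, 0.37 at CT32, 0.63 at CT36 and 0.59 at CT40. They went on to 0.23 at CT44 and -0.01 at CT48, a range of 0.64 (permutation p = 0.00015, the same after adjustment). All 4 libraries of CT12 lay above all libraries of CT0, CT4, CT8, CT20 and CT24, and all 4 of CT36 lay above 3 of the 4 at CT44 and all 4 at CT48. In each series the genes thus changed unequally. In the first the ratio was highest at CT12 and lowest at CT20. In the second it was lowest at CT48, and CT36 and CT40 overlapped at the top: their order rests on CT40 replicate 1 (0.357), as the other 3 CT40 libraries read 0.652 to 0.708. Per kilobase of annotated exon (3.34 kb for Cry1 and 6.32 kb for Cry2), the median level of Cry1 was 379 and that of Cry2 151 in the first series, and 378 and 133.5 in the second. The Cry1 to Cry2 ratio of these levels had a median of 2.49 in the first series (1.95 to 3.22 over libraries) and 2.46 in the second (1.57 to 3.23), so Cry1 was the more abundant transcript by this measure in every library. Gene means had been made nearly equal between the series, so the likeness of their medians says nothing about the genes.

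**Figure D3:**
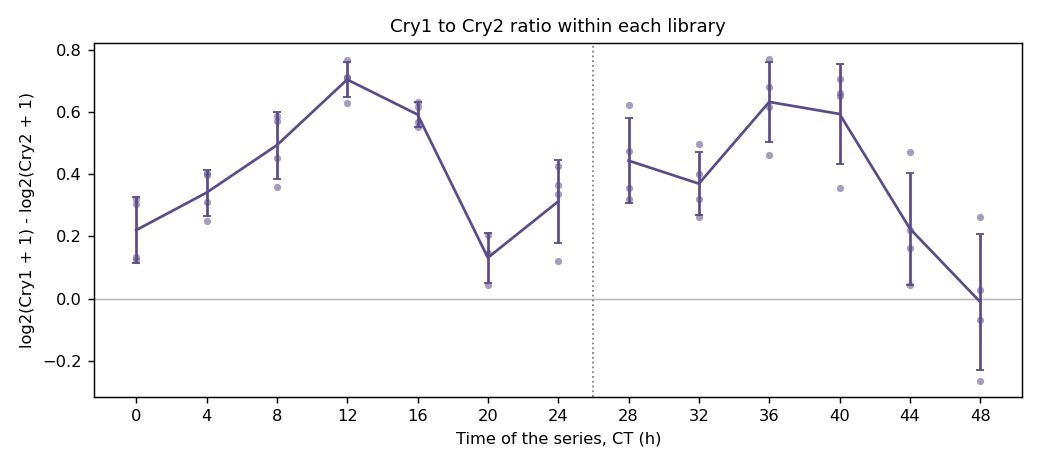
Difference between log2(Cry1 + 1) and log2(Cry2 + 1) in each library (vertical axis, no length correction) against time in hours; points are libraries, the line joins means, bars are 1 SD, and the dotted line parts the library series. The ratio climbs from 0.22 at CT0 to 0.71 at CT12 and is back at 0.13 at CT20, and in the second series it goes from 0.63 at CT36 to -0.01 at CT48.

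The other clock genes were read from 5 lists with 32 members in the table, all of them tested. The activators were Arntl (encoding BMAL1), Clock, Npas2 and Arntl2. From CT0 to CT12 only Clock passed among these 4, rising by 0.20 (adjusted p = 0.00325), and the list median was 0.03 against -0.01 over all genes, of which 18.6% were called. From CT28 to CT40, 3 of 4 rose: Npas2 by 0.87, Arntl by 0.75 and Clock by 0.50 (adjusted p of 0.000477, 2.39e-05 and 4.63e-05), with a list median of 0.62 against -0.02 and 40.7% of all genes called. The same 3 genes rose between CT32 and CT36 (34.8% of all genes called), Arntl by 0.60 (adjusted p = 0.000441), Npas2 by 0.60 (0.0131) and Clock by 0.24 (0.0322). The Cry1 difference over that step had the size of the Clock rise (0.24) without passing, and no difference between them was tested. Arntl was at 492 ± 20.1 at CT32, 749.5 ± 80.4 at CT36 and 819 ± 84.3 at CT48. From CT32 to CT44, when Cry2 and 22.8% of all genes rose, 3 of the 4 activators did. From CT36 to CT48, when Cry2 also rose and 13.9% of all genes were called, none of the 4 activators was called.

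The Per genes encode the partners of the cryptochromes, and their list also holds Timeless, Bhlhe40 and Bhlhe41. From CT0 to CT12, when 18.6% of all genes were called (8.6% higher and 9.96% lower), 4 of 6 were called and they split: Per2 rose by 0.24 and Bhlhe40 by 0.26, as Cry1 did, and Per3 fell by 0.23 and Timeless by 0.25, as Cry2 did (adjusted p of 0.0139, 0.0487, 0.0152 and 0.00105). From CT12 to CT24, 3 of 6 rose, Per3 by 0.40 (adjusted p = 0.000113), Per1 by 0.28 (0.0412) and Bhlhe40 by 0.28 (0.0279), with a list median of 0.28 against 0.01 over all genes, of which 14.7% were higher. From CT28 to CT40 the 3 Per genes rose, as did 18.7% of all genes. Per1 rose by 1.40 (adjusted p = 0.00166), Per2 by 0.88 (0.00527) and Per3 by 0.44 (0.0162). Per1 went from 1237.5 ± 150 at CT28 to 3262 ± 227 at CT40, with no overlap. It spread widely before and after CT40, from 1240 to 2874 at CT36 and from 1498 to 4456 at CT48. Of the 6, only Timeless was called for CT48 against CT36 (13.9% of all genes called), higher by 0.31 (adjusted p = 0.028).

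Among the nuclear receptors, Nr1d1 and Nr1d2 encode REV-ERB repressors and Rora and Rorb opposing activators, which act through RRE elements. Nr1d1 was the only one of these 4 called for CT12 against CT0 (18.6% of all genes called), where it fell by 0.24 (adjusted p = 0.00352). From CT12 to CT24, 3 of 4 rose (Nr1d1 by 0.30, Rora by 0.30 and Nr1d2 by 0.24), with a list median of 0.27 against 0.01 over all genes, of which 14.7% were higher. From CT36 to CT48 the REV-ERB genes rose together, Nr1d1 by 0.52 (adjusted p = 0.00586) and Nr1d2 by 0.54 (adjusted p = 0.00162). Rora and Rorb were not called, and 6.74% of all genes rose. Nr1d1 held 363.75 ± 44.9 at CT32, 376 ± 32.3 at CT36 and 391 ± 43.1 at CT40 before it stood at 537 ± 115.03 at CT44 and 540 ± 45.4 at CT48. From CT28 to CT40, in contrast, Rora and Nr1d2 rose (by 0.87 and 0.38), as did 18.7% of all genes, and Nr1d1 was not called.

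The output factors Dbp, Tef, Hlf and Nfil3 act on D-boxes, the first 3 as activators and Nfil3 as a repressor. None of the 4 was called for CT12 against CT0, when 18.6% of all genes were. Dbp, Tef and Hlf rose from CT12 to CT24 (by 0.25, 0.18 and 0.18), when 14.7% of all genes did. For CT16 against CT4, when 4.51% of all genes were called, Dbp, Nfil3 and Tef fell, by 0.24, 0.23 and 0.16. Neither cryptochrome was called there. From CT28 to CT40, when 18.7% of all genes rose, Hlf rose by 1.01 (adjusted p = 1.08e-06), Tef by 0.63 and Nfil3 by 0.38. From CT36 to CT48, with 13.9% of all genes called, Tef alone was called, rising by 0.55 (adjusted p = 0.000989).

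Of 14 genes for the turnover and phosphorylation of clock proteins, 2 were called for CT12 against CT0, a share no higher than the 18.6% of all genes. Fbxl21, whose product binds cryptochromes for ubiquitination, fell by 0.49 (adjusted p = 0.00197), and Fbxw11, a ubiquitin ligase subunit that targets PER proteins, rose by 0.09 (adjusted p = 0.0122). From CT28 to CT40, 6 of 14 were called, 4 up and 2 down, a share near the 40.7% of all genes, with a list median of 0.07 against -0.02. The deubiquitinase genes Usp2 and Usp7, whose products act on cryptochromes, rose by 0.96 (adjusted p = 0.000358) and 0.33 (adjusted p = 1.67e-06). Prkaa2, a catalytic subunit gene of AMPK, which phosphorylates CRY1, rose by 0.50 (adjusted p = 0.000245), and Skp1a, a shared subunit of SCF ubiquitin ligases, fell by 0.33 (adjusted p = 0.000287). From CT36 to CT48 only Dyrk1a was called among the 14, with 13.9% of all genes called. Dyrk1a, whose kinase phosphorylates CRY2, rose by 0.26 (adjusted p = 0.000523).

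**Figure D4:**
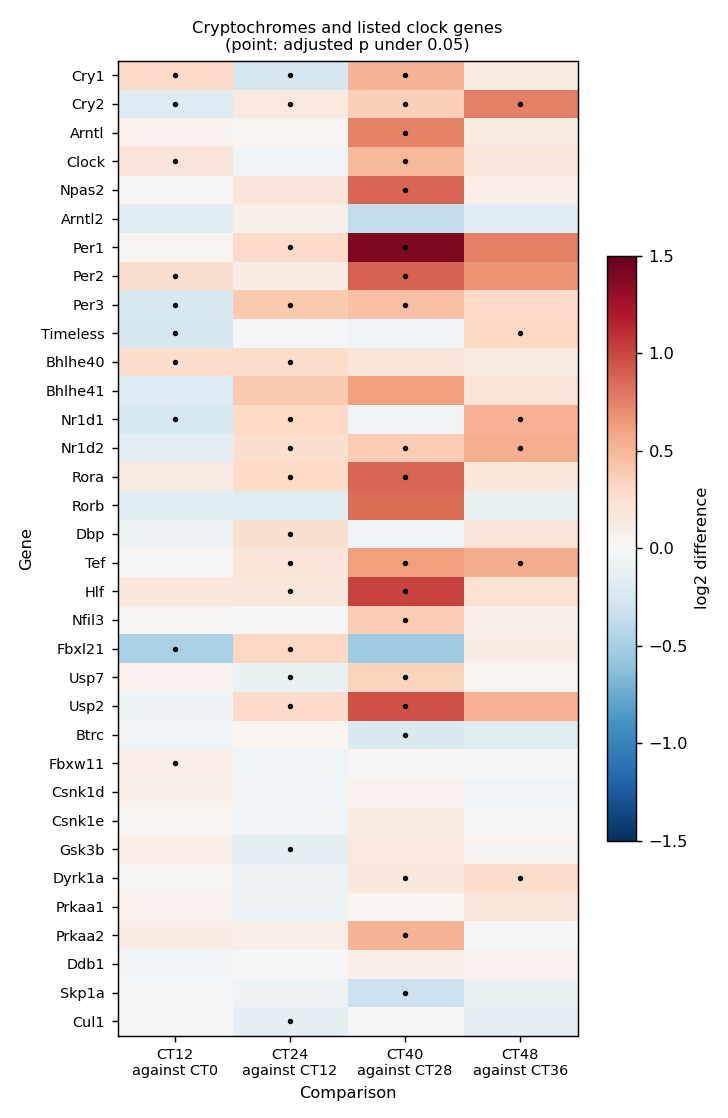
Heat map of log2 differences (colour, from -1.5 to 1.5) for Cry1, Cry2 and the 32 listed clock genes (rows) in 4 comparisons (columns); a point marks an adjusted p under 0.05. Cry1 and Cry2 have opposite colours in the 2 comparisons of the first series. For CT40 against CT28 most marked genes, both cryptochromes included, are higher, and for CT48 against CT36 Cry2 is marked with Nr1d1, Nr1d2, Tef, Timeless and Dyrk1a while Cry1 is not.

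The likeness of time courses was read as Pearson's r of log2 time-point means, separately over the 7 time points of the first series and the 6 of the second, as a description with no test. The points share their libraries and few of them enter each r. Cry1 and Cry2 had r = -0.863 in the first series and r = 0.715 in the second. Cry1 stayed alike in both series to Usp7 (0.874 and 0.894), Clock (0.773 and 0.876) and Fbxw11 (0.861 and 0.748). Cry2 stayed alike to Nr1d1 (0.908 and 0.904) and Nr1d2 (0.804 and 0.887). For Cry1 the sign against Nr1d1 turned, from -0.917 to 0.47, and so it did against Per1 (-0.632 and 0.939) and Usp2 (-0.781 and 0.902). Signs turned for Cry2 as well, among others against Arntl2 (0.943 and -0.597) and Prkaa1 (-0.759 and 0.818). The same held against Usp7 (-0.637 and 0.702), Clock (-0.58 and 0.756) and Per2 (-0.493 and 0.921).

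Ranked over 13463 genes by the lower of both r values, the 5 genes most like Cry1 were Pgs1 (0.927), Cdr2 (0.926), Rrp12 (0.925), Senp6 (0.915) and Dmxl1 (0.913). Pgs1, which encodes an enzyme of cardiolipin synthesis, had means of 1320 at CT0, 1397.5 at CT12 and 1282 at CT20, then 1171.5 at CT32 and 1446 at CT40. Its swing was smaller than that of Cry1 in both series. The 5 genes most like Cry2 were Abcg8 (0.979), Kctd13 (0.954), Prrt3 (0.931), Rbm33 (0.93) and Krba1 (0.928). Abcg8, a sterol transporter subunit gene, had means of only 30.0 at CT0, 19 at CT12, 21.5 at CT36 and 41 at CT48. Its spread was wide, with an SD of 17.7 at CT32. Kctd13 had means of 397.5 at CT0, 355 at CT12, 345 at CT36 and 478.5 at CT48.

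In the authors' deposited table of rhythm tests over the whole time course, Cry1 had a combined p of 4.46e-09 (q = 2.67e-07), a period of 28 h and a phase of 13.04 h. In the same authors' deposited table Cry2 had a combined p of 1.08e-07 (q = 2.33e-06), a period of 24.4 h and a phase of 23.4 h. In the authors' deposited table a q under 0.05 was listed for 41.3% of 16099 genes. Its Cry1 phase belongs to a period of 28 h, so it is not an hour of a 24 h day. Its Cry2 phase lies near the end of a cycle of 24.4 h. The listed Cry1 period is longer than that of Cry2. The Cry1 period was 28 h in both single tests, JTK and LS. Whether 28 h was the upper limit of their search was not examined. Those tests ran across both library series, which are read apart above, where the fitted Cry1 peak lay at 11.2 h in the first series and at 18.5 h in the second. These fitted peaks count in turns of 24 h, so they are not on the scale of the listed Cry1 phase.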

How the data were processed

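Poly-A RNA of fetal kidneys was made into Illumina TruSeq libraries and sequenced on HiSeq instruments, per the labels' protocols. Per the submitters' processing notes, reads passed through bcl2fastq and STAR 2.5.2b (build mm10), then featureCounts 1.5.0-p3. The sources used here do not name the annotation, the normalisation or the use of strand. The deposited expression table is named for counts, but its values are a normalised score rounded to whole numbers, as read from the values. The variance of low genes was 0.692 times their mean in the first series and 3.34 times in the second. Depth per library is unknown, so no counting interval is given. The authors' deposited rhythm table holds p-values, q-values and scores for period and phase, per the file headers.

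Each library series was fitted alone in limma 3.58.1 (R 4.3.3) after log2(value + 1), using a mean-variance trend and robust moderation. Genes entered if their mean was 10 or more (14426 of 16099). Log2 differences on this scale understate changes of low genes. The threshold was a Benjamini-Hochberg adjusted p of 0.05 in each comparison. The models were time-point differences, 9 contrasts, and a 24 h cosine and sine, with a test of their difference between series. Outside the ratio test, adjusted p-values in the text are limma's. The fits were tested on simulated data. No pair of libraries was identical, and all library columns were used.

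The genes described, the lists and the tests were chosen with earlier results of these data known. Named from a list in each comparison are up to 4 called members of largest effect, or else its member of smallest p. Genes most like a cryptochrome are the 5 with the highest lower r of both series, without predicted gene models and sex-linked genes. Genes named beyond this rule were chosen after their values were seen. Expression of the list genes Ciart and Epb42 was not analysed here, and some clock genes are not reported here. Of 16099 symbols, 15979 were found in GENCODE M21. Alternatives were another pseudocount, no filter, quantile scaling, plain moderation, a replicate block, 1 fit of all libraries, an added line, time-point means as the unit, and leaving out libraries or time points.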

Additional observations from a re-analysis of the deposited data

Results flagged for a closer look

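Of 36 groups of 4 libraries checked for a library far from the others, 3 had one, and chance flags about 1 in 20 groups. The lowest Cry1 value at CT36 was 982, with the other 3 libraries at 1259 to 1304. The lowest Cry2 value at CT8 was 869, with the others at 983 to 990. The lowest log2 ratio of Cry1 to Cry2 at CT40 was 0.357, with the others at 0.652 to 0.708. The 24 h terms differed between the first and the second library series for Cry1 (limma, adjusted p = 1.73e-07) and for Cry2 (adjusted p = 9.7e-07). The fitted peak of Cry1 was at 11.2 h in the first series and 18.5 h in the second.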

How the results depend on the processing

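Of 780 alternative values for the cryptochromes and their ratio, 735 kept their side of the threshold, 41 lost the call and 4 gained one. No called difference reversed, and the uncalled Cry2 difference for CT36 against CT32 ran from -0.07 to 0.01 when libraries were left out. The p-values below are limma's, and causes were not tested. With all 51 libraries in 1 fit, calls were lost for Cry2 over CT0 to CT24 (time-point differences, adjusted p = 0.271), for Cry2 in CT12 against CT0 (-0.19, adjusted p = 0.169) and CT24 against CT12 (0.14, adjusted p = 0.282), for Cry1 in CT20 against CT8 (-0.29, adjusted p = 0.109) and CT24 against CT12 (-0.25, adjusted p = 0.0544), and for the Cry2 24 h amplitude of CT0 to CT24 (0.077, adjusted p = 0.557). That fit and quantile scaling gained Cry1 in CT36 against CT32 (0.24, adjusted p = 0.0141, and 0.28, adjusted p = 0.0293). Quantile scaling lost Cry2 in CT24 against CT12 (0.11, adjusted p = 0.109) and its 24 h amplitude of CT0 to CT24 (0.067, adjusted p = 0.0795). With time-point means as the unit, amplitudes that lost the call were 0.15 and 0.078 in the first series (Cry1 and Cry2, adjusted p = 0.692 and 0.698) and 0.29 and 0.42 in the second (limma adjusted p = 0.12 and 0.122), and the difference of Cry2 terms between series had adjusted p = 0.0782. That difference had adjusted p = 0.137 with a line for each series. Without CT28 and CT32, chosen after the data were seen, Cry1 differences in the second series had adjusted p = 0.0793.

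Leaving out each library, the Cry2 amplitude of CT0 to CT24 ran from 0.069 to 0.087 (adjusted p from 0.0143 to 0.0887, not called in 7 of 27) and Cry2 in CT24 against CT12 from 0.10 to 0.18 (adjusted p from 0.0198 to 0.184). Leaving out each time point, the Cry2 amplitude ran from 0.058 to 0.10. Leaving out each library moved Cry2 in CT12 against CT0 from -0.22 to -0.17 and its first-series differences from an adjusted p of 0.0029 to 0.0233, with no call lost. Cry1 in CT36 against CT32 ran from 0.20 to 0.33 over libraries. Leaving out each replicate number (added after the data were seen) gave Cry2 in CT12 against CT0 from -0.21 to -0.18 (adjusted p = 0.0841 without replicate 3), in CT24 against CT12 from 0.13 to 0.16, its first-series differences adjusted p from 0.00762 to 0.109, its first-series amplitude from 0.076 to 0.081 (adjusted p from 0.0791 to 0.172), and Cry1 in CT36 against CT32 from 0.21 to 0.31. Other second-series calls on the cryptochromes held without any library or replicate number.

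Residual correlations of same-numbered libraries ran from -0.302 to 0.38 in the first series (median 0.0355, against -0.0138 for other pairs) and from -0.0859 to 0.153 in the second (0.00476 against -0.00864), so not every pair was over 0.1; 11 of 27 and 8 of 24 libraries correlated best with their own number. With the number as a replicate block no call on the cryptochromes changed (Cry2 in CT12 against CT0, -0.19, adjusted p = 0.00188), with 3136 genes called there and 7434 for CT0 to CT24 differences.

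Lowest and highest numbers of genes called over the alternatives were 1345 and 7434 for CT0 to CT24 differences (6277 as reported), 419 and 3136 for CT12 against CT0 (2677), 28 and 1008 for CT16 against CT4 (650), 140 and 2673 for CT20 against CT8 (1963), 912 and 4140 for CT24 against CT12 (3695), and 1443 and 4601 for CT24 against CT0 (3832), each lowest in the fit of all libraries. They were 3177 and 11845 for CT28 to CT48 differences (9332), lowest without CT28 and CT32, 2714 and 6942 for CT36 against CT32 (5023), and 710 and 4209 for CT48 against CT36 (2008). The 24 h terms were called in 0 to 3329 genes of the first series (1922) and 0 to 9477 of the second (7215), 0 by limma over time-point means, with 1023 and 3229 genes at an unadjusted p under 0.05. Their difference was called in 0.846% to 44.9% of genes (43.3%).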

Other observations

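Over the day from CT0 to CT24, in which neither cryptochrome was called and 26.6% of all genes were, several other clock genes changed (limma, adjusted p under 0.05). Of the 6 period and other repressor genes 3 rose, Bhlhe40 by 0.54, Per2 by 0.36 and Per1 by 0.33, and Timeless fell by 0.27, with a list median of 0.27 against 0.00 over all genes. Of the 4 output factors 3 rose, Hlf by 0.33, Tef by 0.20 and Dbp by 0.17. Clock rose by 0.15 among the 4 activators, and Rora rose by 0.42 among the 4 nuclear receptors. Of the 14 turnover and kinase genes Usp2 and Prkaa2 each rose by 0.20 and Cul1 fell by 0.15. Kidney markers changed over the same day: Umod, a gene of the thick ascending limb, rose by 0.97, Aqp2, the water channel of the collecting duct, by 0.76, and Slc34a1, the phosphate transporter of the proximal tubule, by 0.38. Six2, a gene of nephron progenitors, fell by 0.27. Of the genes listed as markers of other tissues, Ttr and Apoa2 (liver list) rose by 1.21 and 0.55 and Slc4a1 (erythroid list) by 0.42. Actn3 (skeletal muscle list) fell by 0.35. These comparisons share their CT0 and CT24 libraries with those of the report.

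From CT8 to CT20 Cry1 fell and 13.6% of all genes were called. Per2 fell by 0.31 (limma, adjusted p = 0.00652) and Clock by 0.19 (0.0118) over that interval. Rora rose by 0.39 (0.0125), Timeless by 0.20 (0.0149) and Btrc, a ubiquitin ligase subunit gene, by 0.15 (0.0052).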
